A study of Mus musculus with 12 samples.

Results

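C1q-positive cells annotated as dendritic cells (DC) were spleen cells that carried the authors' annotation DC and in which at least 2 of the 3 C1q chain genes C1qa, C1qb and C1qc stood above 0. They numbered 428 of 22285 cells, and are called C1q-positive DC here by that rule. The cells were chosen by their measured C1q values, and the authors' clustering used the expression of the same cells. The contrasts of these cells with their neighbours are therefore descriptions, with no test. The comparison groups were the 273 other cells annotated DC (other DC) and the 2579 cells annotated Mac.

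The study profiled CD45+ spleen cells, enriched with magnetic beads, of 4 male mice by droplet single-cell RNA sequencing with B and T cell receptor libraries. The 2 WT mice were C57BL/6, with a deposited age of 14.4 (no unit given). The 2 SLE.yaa mice were B6.Sle1yaa, with a deposited age of 14.9, a lupus model that joins the Sle1 susceptibility interval with Yaa, a translocation of X-linked sequence that includes Tlr7 onto the Y chromosome. The tag that holds the strain names also mentions chimeras, without saying if any of these mice was one. Age, strain and genotype differed together and cannot be told apart.

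C1q is the recognition unit of the classical complement pathway, and tissue macrophages are its main source. It binds antibody complexes and dying cells and marks them for uptake. In the spleen, red pulp macrophages clear aged red blood cells, break down haem through Hmox1 and export the iron through Slc40a1 (ferroportin). Their fate depends on the transcription factor Spic. Conventional dendritic cells (cDC) instead depend on the cytokine receptor Flt3, express Zbtb46 and present antigen on MHC class II.

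The pan-cDC markers other than Itgax went against the label DC, while cDC1 markers were held by a part of the cells. Flt3 was above 0 in 0 of 206 and 0 of 209 C1q-positive DC of the 2 SLE.yaa mice, which allows a share of up to 1.46% and 1.44%. That limit covers the counting of cells with a UMI and not missed transcripts, and the cells had fewer UMI than other DC (medians of 4449 and 3796 against 6596 and 7093). In other DC Flt3 was above 0 in 46.3% and 56.8% of cells of these mice. Kit was likewise at 0 in every C1q-positive DC, and Zbtb46 stood above 0 in 0.485% and 0.957% of them. At least 3 of the 7 pan-cDC markers were held by 2.91% and 4.78% of C1q-positive DC and by 70.4% and 75.3% of other DC. Itgax (CD11c), also in that list, was above 0 in 47.6% and 62.2% of C1q-positive DC and in 51.9% and 70.4% of other DC. At least 3 of the 9 markers of cDC1, the cross-presenting subset, were held by 19.9% and 26.3% of C1q-positive DC. The shares were 25.9% and 16.0% in other DC and 1.45% and 0.943% in Mac, so those of C1q-positive and other DC overlapped. By level, 5 of the 8 cDC1 genes compared were lower than in other DC and 1, Cadm1, was higher (median log2 difference -1.59). At least 3 of the 12 red pulp macrophage genes were held by 69.9% and 54.5% of C1q-positive DC, by 5.56% and 9.88% of other DC and by 30.7% and 24.8% of Mac. That list includes Cd5l, Hmox1 and Vcam1, marker genes named for these cells beforehand, so its shares are no independent support for a name. The label Mac also stood apart from its name. At least 3 of 10 classical monocyte markers were held by 68.9% and 70.3% of Mac in these mice, and at least 3 of 11 patrolling monocyte markers by 97.1% in both. The corresponding shares of C1q-positive DC were 0.971% and 2.87% for classical monocyte markers and 44.7% and 49.3% for patrolling monocyte markers.

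The promoters of 4 of the 7 marker and C1q chain genes were matched in RefSeq (GRCm38.p6, the files' build) and are shown because they belong to 2 of the C1q chain genes that set the rule and to 2 marker genes that it did not use. C1qa, Hmox1 and Vcam1 were not matched. The 3 C1q genes lie side by side on chromosome 4, with C1qb at chr4:136880126-136886200, C1qc at chr4:136889801-136892936 and C1qa at chr4:136895916-136898844. Each sequence gives the 250 bases before the transcript start that the RefSeq promoter table uses, 5′ to 3′ on the gene's own strand. For C1qc that start lies inside the gene span given above, so the last bases of its window, at the 3′ end, lie within that span. Capitals mark the PU.1-type ETS motif GGAAGT, which reads ACTTCC on the opposite strand. PU.1 is a transcription factor of myeloid cells.
C1qb (chr4:136886201-136886450, minus strand): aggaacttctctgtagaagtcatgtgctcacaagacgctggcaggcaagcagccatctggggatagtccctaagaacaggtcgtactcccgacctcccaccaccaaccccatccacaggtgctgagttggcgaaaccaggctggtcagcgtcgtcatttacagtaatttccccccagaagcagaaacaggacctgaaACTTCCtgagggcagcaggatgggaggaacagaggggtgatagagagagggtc
C1qc (chr4:136892915-136893164, minus strand): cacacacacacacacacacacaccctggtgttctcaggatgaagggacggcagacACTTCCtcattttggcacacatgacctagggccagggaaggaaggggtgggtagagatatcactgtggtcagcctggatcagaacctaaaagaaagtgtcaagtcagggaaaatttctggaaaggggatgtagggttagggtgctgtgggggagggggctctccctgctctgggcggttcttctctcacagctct
Cd5l (chr3:87357631-87357880, plus strand): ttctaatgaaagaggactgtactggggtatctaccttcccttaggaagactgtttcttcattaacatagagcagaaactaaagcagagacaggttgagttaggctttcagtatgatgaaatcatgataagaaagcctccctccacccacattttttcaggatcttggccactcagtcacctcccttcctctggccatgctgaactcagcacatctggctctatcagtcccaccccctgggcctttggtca
Fcgr4 (chr1:171018676-171018925, plus strand): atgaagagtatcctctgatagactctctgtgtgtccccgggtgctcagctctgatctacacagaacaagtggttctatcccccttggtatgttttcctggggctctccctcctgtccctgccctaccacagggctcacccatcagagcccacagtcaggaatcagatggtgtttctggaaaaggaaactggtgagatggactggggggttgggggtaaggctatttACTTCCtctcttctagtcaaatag
The motif GGAAGT, on either strand, was present 1 time each in the C1qb, C1qc and Fcgr4 windows and 0 times in that of Cd5l. It began at -53 in C1qb, -195 in C1qc and -24 in Fcgr4, counted from that transcript start. Of all 32851 promoters of this length, 6485 (19.7%) held it. The Maf-type motif TGCTGAC was in none of the 4 windows and in 1252 promoters (3.81%). These matches are descriptions of letters, not of binding.

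Total UMI counts ran from 21793635 to 28877299 per mouse over 4961 to 6130 cells. In the 2 SLE.yaa mice the median UMI count of C1q-positive DC was 4449 and 3796, that of other DC 6596 and 7093, and that of Mac 3515 and 3149. The barcodes of 8 of the 428 C1q-positive DC also occurred in another mouse, as did 510 of all 22285. The sources do not say that the mice were handled in separate batches or in 1 batch. Levels below are the mean depth-adjusted value of a gene over the cells of a class in 1 mouse, scaled to a sum of 1000000 and divided by TMM factors between classes (value per 1000000, vpm).

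How common were these cells in each mouse? WT mouse 1 held 4 C1q-positive DC and WT mouse 2 held 9, or 0.0728% and 0.158% of all cells. SLE.yaa mouse 1 held 206 and SLE.yaa mouse 2 held 209, or 4.15% and 3.41%. The groups did not overlap. The mean share was 0.115% ± 0.0603 (SD, n = 2) in WT and 3.78% ± 0.525 (SD, n = 2) in SLE.yaa, and edgeR's quasi-likelihood test over 13 cell types gave a 32.0-fold difference (adjusted p = 4.82e-09). Over the alternative settings the log2 difference ran from 3.16 to 5.66. The lowest was that of the share among cells annotated Mac or DC, where C1q-positive DC made up 0.885% and 3.70% of such cells of the WT mice, against 25.4% and 11.8% of those of the SLE.yaa mice. The genotype distribution was known when these cells were chosen, and an exact permutation test over 2 and 2 mice cannot go below p = 0.333. Other DC held 73 and 65 cells in the WT mice and 54 and 81 in the SLE.yaa mice, with a log2 difference of -0.032 (edgeR adjusted p = 0.940). Mac differed 3.61-fold (edgeR adjusted p = 0.000365). Among cells annotated DC, C1q-positive cells were 5.19% and 12.2% of the WT and 79.2% and 72.1% of the SLE.yaa cells.

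**Figure D1:**
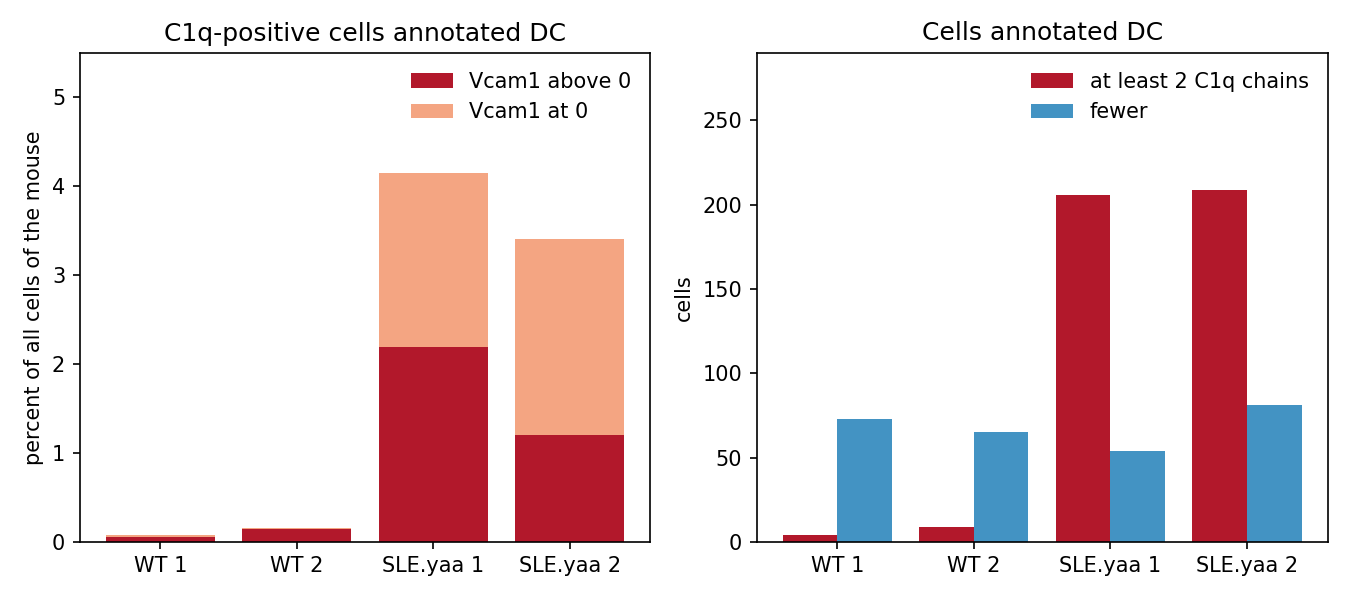
Left, C1q-positive cells annotated DC as a percent of all cells of each mouse, stacked by whether Vcam1 stood above 0 or at 0. Right, the number of cells annotated DC with at least 2 C1q chains above 0 and with fewer; the first were 206 and 209 in the SLE.yaa mice and 4 and 9 in the WT mice, while the others ran from 54 to 81.

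The cells on either side of the rule were few. Of the cells annotated DC, 260 had 0 chains above 0, 13 had 1, 17 had 2 and 411 had all 3. The summed depth-adjusted value of the 3 chains had a median of 2 in the cells with 1 chain, of 8 in those with 2 and of 50 (range 6 to 152) in those with 3. Just outside the rule, the 13 cells with 1 chain, all in SLE.yaa mice, included 7 with Fcgr4, 3 with Vcam1 and 2 with Flt3 above 0. Just inside, the 17 cells with 2 chains included 10 with Fcgr4, 7 with Vcam1 and 0 with Flt3. The 260 cells without a chain included 151 with Flt3 and 15 with Fcgr4. By these genes the cells just outside lay between the others.

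The C1q chains themselves stood at 3389 and 2937 vpm for C1qa, 4624 and 4620 for C1qb and 3650 and 3452 for C1qc in C1q-positive DC of SLE.yaa 1 and 2. In other DC and Mac of the same mice no chain was above 19.8 vpm. Of all 504 cells with at least 2 chains, 76 were annotated as another type than DC. Such cells made up 0.545% and 1.35% of Mac, 0.268% and 0.555% of B cells and 0.756% and 1.01% of CD4 and CD8 T cells in the SLE.yaa mice. T cells, which should lack C1q, had median UMI counts of 4716.5 and 3913.5 there. In WT B cells they were 0 of 3450 cells in mouse 1, which allows up to 0.0870%, and 0.0531% in mouse 2.

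What set these cells apart from other DC of the same mouse? Macrophage genes of iron recycling, uptake and lysosomal breakdown were higher, and MHC class II and cDC genes were lower. A gene was called where log2(level + 10) differed by at least 1 (2-fold) in the same direction in both SLE.yaa mice, which understates the fold of low genes. Of 7937 genes compared, 536 (6.75%) were higher and 393 (4.95%) were lower in C1q-positive DC. The counts of list members below are to be read beside those shares, and the median log2 difference of all genes compared was 0.042. Neutrophil markers summed to 49.9 vpm in other DC of SLE.yaa 1 and to 2831 vpm in those of SLE.yaa 2. Without the other DC that held at least 3 neutrophil or 3 red pulp markers the count of called genes was 1008, against 929. Against other DC with no C1q chain above 0, 907 of the 929 genes were called again.

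All 12 red pulp macrophage genes compared were higher than in other DC, with a median log2 difference of 3.25. Among them, Cd5l, Hmox1 and Vcam1 were marker genes named for these cells beforehand. Vcam1, an adhesion molecule that holds cells through integrins, stood at 1392 and 1030 vpm in C1q-positive DC, against 13.3 and 90.1 in other DC. Cd5l, a secreted protein that protects macrophages from cell death, stood at 736 and 594 vpm against 0 and 22.0. The ferroportin gene Slc40a1 stood at 938 and 510 against 0 and 43.9 vpm, and Spic at 379 and 222 against 26.6 and 24.2. In each of these genes both values in C1q-positive DC lay above both values in other DC.

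Of 12 haem and iron genes 11 were higher and 0 lower (median log2 difference 2.81). Hmox1, haem oxygenase 1, stood at 1596 and 1119 vpm against 43.3 and 222 in other DC, a log2 difference of 4.91 in SLE.yaa 1 and of 2.28 in SLE.yaa 2. Transferrin (Trf) stood at 719 and 329 vpm against 49.9 and 30.8, and biliverdin reductase B (Blvrb) at 446 and 339 against 49.9 and 22.0. The smaller Hmox1 difference in SLE.yaa 2 went with a higher level in its other DC, not only with a lower one in the C1q-positive cells.

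Receptors that take up antibody-coated and dying cells followed. Of 6 IgG Fc receptor genes 5 were higher and 0 lower. Fcgr4, an activating receptor for IgG, stood at 1438 and 1778 vpm against 143 and 182 in other DC. Fcgr1, the high-affinity receptor, stood at 141 and 130 against 3.33 and 13.2 vpm. The inhibitory receptor Fcgr2b was the 1 gene of the list without a call, at 45.8 and 14.2 against 13.3 and 17.6 vpm. Of 13 genes of apoptotic cell uptake 8 were higher and 0 lower. Axl, a receptor tyrosine kinase for dying cells, stood at 471 and 349 vpm against 3.33 and 37.3, and its relative Mertk at 140 and 106 against 0 and 4.39. Mrc1, the mannose receptor, stood at 388 and 331 vpm against 0 and 54.9.

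Of 15 lipid handling genes 10 were higher and 1 was lower. Apoe, the main lipid carrier protein of macrophages, stood at 2516 and 1540 vpm against 123 and 65.9, and lipoprotein lipase (Lpl) at 124 and 179 against 0 and 6.59. The gene that was lower, Fabp5, stood at 188 and 114 against 795 and 1065 vpm. Of 19 lysosome genes 11 were higher and 0 lower. Cathepsin D (Ctsd) stood at 1018 and 910 vpm against 56.6 and 57.1, and cathepsin B (Ctsb) at 3559 and 2350 against 323 and 327. Beyond the C1q chains, 3 of 9 complement genes were higher and 0 lower, among them C4b at 63.6 and 54.8 vpm against 0 in both.

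Of 16 macrophage transcription factor genes 10 were higher and 2 lower. Maf, a factor of macrophage differentiation, stood at 204 and 229 vpm against 9.98 and 10.98. Runx3 and Bhlhe40 were the lower ones. Runx3 stood at 0 and 2.03 vpm against 73.2 and 125. Spi1, which encodes PU.1, was not called, at 488 and 517 against 619 and 507 vpm. The 2 groups of DC therefore overlapped in Spi1 while their Maf levels were apart.

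Further named genes higher than in other DC were Fcna, a lectin of macrophages, at 535 and 282 vpm against 3.33 and 8.79, and the protease inhibitor gene Slpi.

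Genes of antigen presentation and pan-cDC markers were lower. Of 11 MHC class II genes 10 were lower and 0 higher (median log2 difference -1.98). H2-Ab1 stood at 821 and 1203 vpm against 3264 and 4655 in other DC, and its chaperone Cd74 at 5291 and 5645 against 18630 and 22032. H2-DMb1 was the gene without a call. Of 7 pan-cDC markers 6 were lower and 0 higher, and the one without a call was Itgax (CD11c), at 245 and 425 vpm against 220 and 314. Ccr7, the receptor that guides dendritic cells to T cell zones, stood at 15.9 and 3.04 vpm against 725 and 305, and was above 0 in 16 of 54 and 19 of 81 other DC. Fscn1, an actin bundler of migratory dendritic cells, stood at 5.61 and 1.01 against 1358 and 428. The next genes by the size of the lower difference were Cd7, Flt3, Klrd1, Apol7c, Cacnb3, Cd209a, Lsp1 and Marcksl1. Of the 8 cDC1 genes compared 5 were lower and 1 was higher, the adhesion molecule gene Cadm1, at 262 and 369 vpm against 63.2 and 74.7. Xcr1, the chemokine receptor of cDC1, was among the lower, at 0 and 9.13 against 86.5 and 32.9 vpm. Of 7 cDC2 genes 5 were lower and 2 higher.

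**Figure D2:**
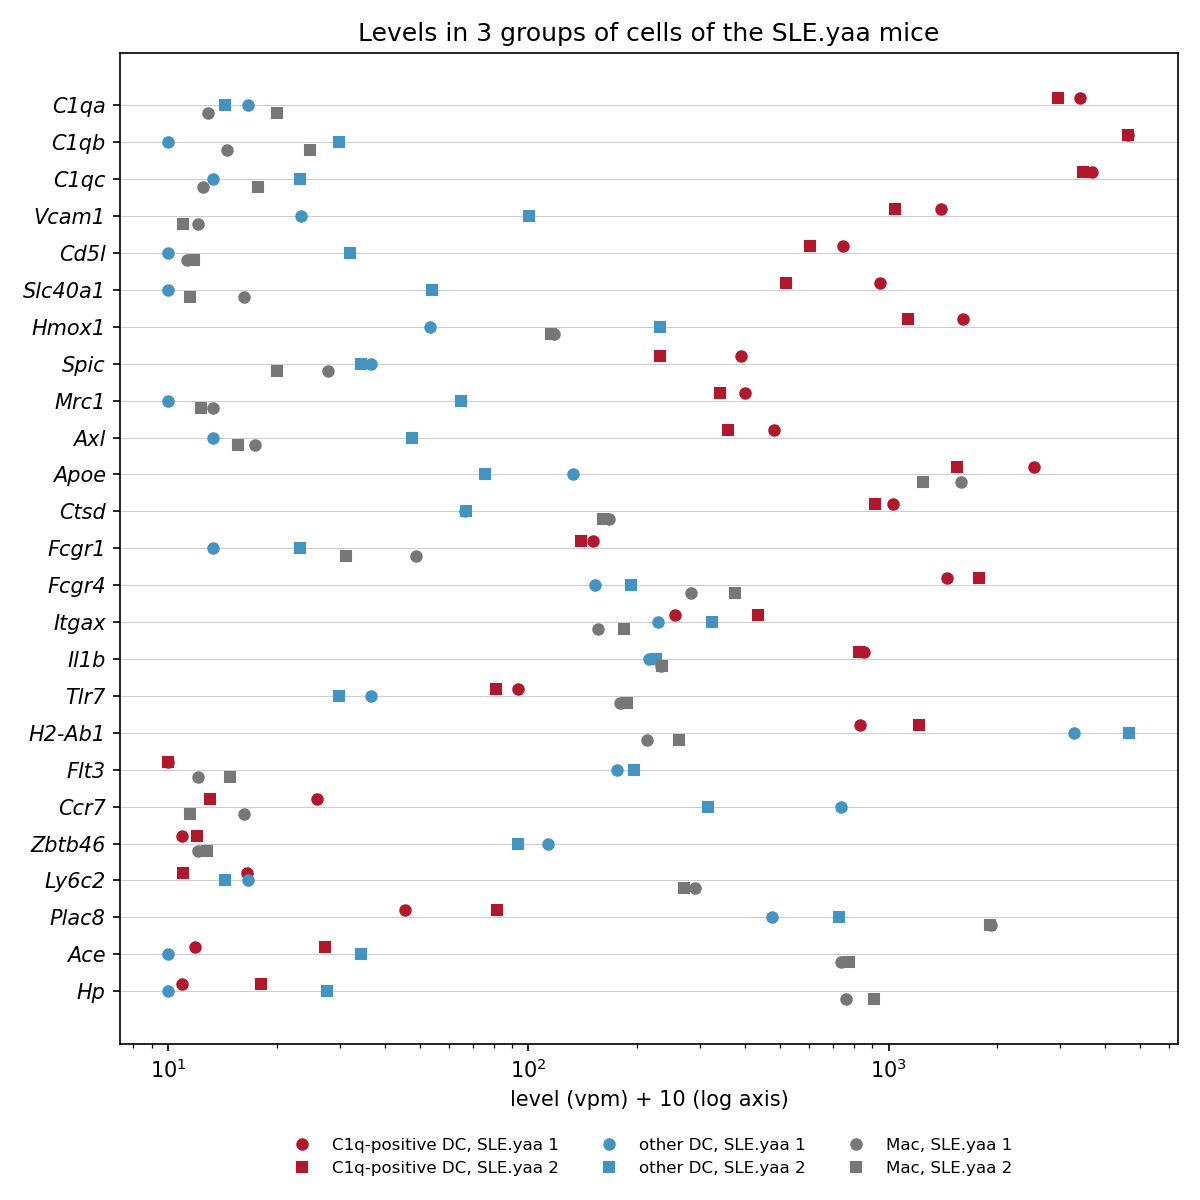
Level vpm plus 10 (log axis) of 25 genes in C1q-positive DC, other DC and Mac of SLE.yaa mouse 1 (circles) and 2 (squares). C1q chains, Vcam1, Cd5l, Slc40a1 and Hmox1 are highest in C1q-positive DC of both mice, Flt3, Ccr7 and Zbtb46 in other DC, and Ly6c2, Plac8, Ace and Hp in Mac.

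How did they differ from cells annotated Mac? They carried more of the red pulp and iron genes and more MHC class II, and far less of the monocyte genes. Of 7992 genes compared, 508 (6.36%) were higher and 491 (6.14%) lower than in Mac, with a median log2 difference of -0.089 over all of them. Of 12 red pulp macrophage genes 9 were higher and 1 lower (median 3.13). Vcam1 stood at 2.06 and 0.990 vpm in Mac, Cd5l at 1.23 and 1.81, and Slc40a1 at 6.17 and 1.48, all far under the levels given above. Treml4 was the lower one, at 136 and 69.0 vpm in C1q-positive DC against 324 and 308 in Mac.

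Of 12 haem and iron genes 10 were higher and 0 lower (median 1.79). Hebp1, a haem-binding protein, stood at 339 and 347 vpm against 3.29 and 3.13 in Mac. Of 6 IgG Fc receptor genes 2 were higher and 0 lower, namely Fcgr1 (38.7 and 21.1 vpm in Mac) and Fcgr4 (273 and 365). Apoe was not called, at 1576 and 1240 vpm in Mac. The mean Apoe level over all C1q-positive DC was therefore apart from that of other DC only. That mean joins unlike cells. Pooled over the SLE.yaa mice, Apoe was above 0 in 93.4% of C1q-positive DC with Vcam1 above 0 and in 14.7% of those with Vcam1 at 0.

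Of 9 MHC class II genes 5 were higher than in Mac and 0 lower, and H2-Ab1 stood at 203 and 252 vpm in Mac. The class II level of C1q-positive DC lay between those of other DC and Mac in both mice. All 9 classical monocyte genes compared were lower (median -4.03). Plac8 stood at 35.5 and 72.0006 vpm against 1912 and 1908, Ly6c2 at 6.55 and 1.01 against 281 and 260, and lysozyme (Lyz2) at 331 and 617 against 8117 and 6972. Of 11 patrolling monocyte genes 9 were lower and 0 higher. Ace, angiotensin-converting enzyme, stood at 1.87 and 17.2 vpm against 729 and 764. The haptoglobin gene Hp, a plasma protein that binds haemoglobin, stood at 0.935 and 8.11 against 752 and 901 vpm and ranked first among the lower genes by the smaller of its differences in both mice. Pglyrp1, Apoc2, Ifitm6, Ahnak, Ceacam1, Chil3 and Rnase6 were the remaining named genes that were lower, and Asb2, Fcna, Mrc1, Axl and Cadm1 those that were higher. Of 16 macrophage transcription factor genes 5 were higher and 5 lower. Cebpb and Klf4, factors of the monocyte lineage, were among the lower, with Cebpb at 347 and 338 vpm against 2567 and 2544.

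**Figure D3:**
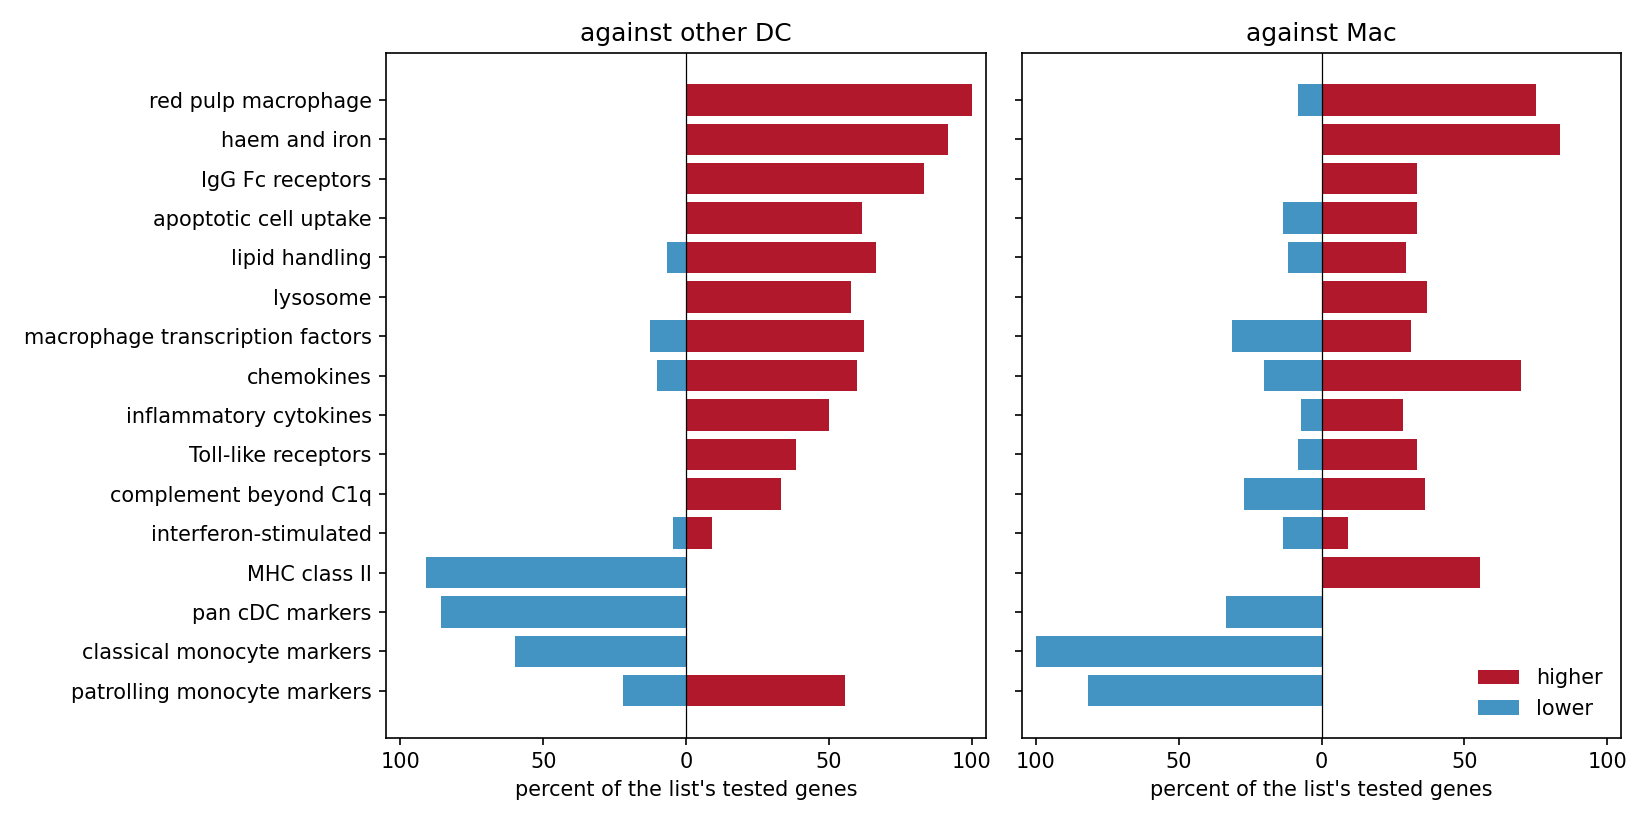
Percent of the genes compared in each of 16 gene lists that were at least 2-fold higher (right of 0) or lower (left of 0) in C1q-positive DC of both SLE.yaa mice, against other DC and against Mac. MHC class II lies on opposite sides of the 2 panels, and the red pulp and haem lists lie on the higher side in both.

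Signalling genes differed less uniformly. Il1b, the interleukin 1 beta gene, stood at 843 and 815 vpm against 206 and 215 in other DC and 223 and 225 in Mac. Of 12 genes of the inflammatory cytokine list 6 were higher and 0 lower than in other DC, and 4 of 14 higher and 1 lower than in Mac. The list also holds genes that are not cytokines. Among them were Mrc1, higher than in Mac, and Chil3, the 1 gene lower than in Mac. The chemokine genes Ccl3 and Ccl4 were higher in both comparisons, with Ccl4 at 165 and 193 vpm against 29.9 and 2.20 in other DC and 23.0 and 2.14 in Mac. Ccl5 was lower than in other DC, at 29.0 and 233 vpm against 3028 and 973. Of 13 Toll-like receptor pathway genes 5 were higher and 0 lower than in other DC. Tlr7, the RNA sensor that Yaa duplicates, stood at 83.2 and 71.0 vpm, above other DC (26.6 and 19.8) and below Mac (170 and 177, not called). Of 22 interferon-stimulated genes 2 were higher and 1 was lower than in other DC, and 2 were higher and 3 lower than in Mac. Shares of that size are near those of all genes compared.

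Haemoglobin transcripts were among the most different genes but came from few cells. Hbb-bs stood at 730 and 1671 vpm in C1q-positive DC against 0 in both other DC samples and at most 0.990 in Mac. It was above 0 in 7 of 206 and 20 of 209 cells, and the 2 highest cells held 86.2% and 89.6% of its summed value. At least 3 erythroid markers were held by 3.40% and 4.31% of C1q-positive DC and by no cell of other DC or Mac. Without the cells that held an erythroid transcript, leaving 195 and 182 cells, Hbb-bs, Hba-a1 and Hba-a2 were no longer called in either comparison, which follows from how the cells were left out. The other named genes of both comparisons kept their calls in that setting. At least 3 B cell markers were held by 15.5% and 14.8% of C1q-positive DC, by 12.96% and 16.0% of other DC and by 7.45% and 6.53% of Mac. In WT they were held by 1 of 4 and 6 of 9 C1q-positive DC. At least 3 platelet markers were held by 1.94% and 2.39% of C1q-positive DC and by none of other DC in these mice. The part of these transcripts in other differences was not tested beyond those settings.

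Receptor libraries gave a readout that the rule did not use. A B or T cell receptor of the same mouse was found for 5 of 206 (2.43%, exact 95% Clopper-Pearson interval 0.793 to 5.57) and 2 of 209 (0.957%, 0.116 to 3.41) barcodes of C1q-positive DC. In WT it was 0 of 4 and 0 of 9, which say little at such numbers. Over the 4 mice, other DC gave 2.47% to 5.48% and Mac 1.08% to 4.53%. Both values in C1q-positive DC lay below those of other DC. They were within the interval of the lowest, 2 of 81 cells in SLE.yaa 2 (0.300 to 8.64), so the order rests on few barcodes. For scale, a heavy chain was found for 71.4% to 88.4% of B cells. Intervals cover counting error only. Cells with at least 2500 genes made up 23.8% and 13.9% of C1q-positive DC, 35.2% and 35.8% of other DC and 12.7% and 10.2% of Mac.

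Within the C1q-positive DC the red pulp genes were not spread evenly. A division by Vcam1, chosen after the values were seen and given with no test, separated 109 cells with Vcam1 above 0 from 97 at 0 in SLE.yaa 1, and 74 from 135 in SLE.yaa 2. The C1q chains did not follow that division. C1qa stood at 3853 and 2530 vpm in the cells with Vcam1 and 3057 and 3176 in those without, and none of the 3 chains was called. Of 7783 genes compared, 466 (5.99%) were higher and 331 (4.25%) lower in the cells with Vcam1.

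The iron-recycling genes were higher in the cells with Vcam1, but not all were absent from the others. The haem and iron list summed to 37078 and 36640 vpm in cells with Vcam1 and to 22408 and 24119 in those without. It summed to 9762 and 10311 vpm in Mac of these mice. All 12 red pulp macrophage genes, Vcam1 itself included, were higher (median log2 difference 3.08), and 8 of 12 haem and iron genes were higher and 0 lower. Slc40a1 was above 0 in 94.5% and 87.8% of cells with Vcam1 and in 2.06% and 4.44% of those without. Cd5l was above 0 in 90.8% and 91.9% against 3.09% and 7.41%, and Mrc1 in 84.4% and 83.8% against 2.06% and 0.741%. Hmox1 was above 0 in 92.7% and 89.2% against 41.2% and 22.2%. In each gene the shares of the 2 mice lay closer to each other than to the other class of cells. Apoe stood at 5181 and 4453 vpm against 295 and 242, Trf at 1574 and 1050 against 5.24 and 5.98, and C6, a component of the terminal complement complex, at 557 and 377 against 0 and 5.98. Ctsb stood at 5984 and 5372 vpm against 1561 and 1016. The uptake genes Mertk and Lrp1 were also on this side, with Lrp1 at 654 and 564 against 5.24 and 28.4 vpm. The remaining named genes higher in the cells with Vcam1 were Fcna, Ptgs1, Apoc1, Clec4n, Paqr9, Igf1, Ccr3 and Kcna2.

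The cells without Vcam1 were marked by other receptors. Itgax was above 0 in 81.4% and 87.4% of them and in 17.4% and 16.2% of the cells with Vcam1. Cx3cr1, the fractalkine receptor of patrolling monocytes and some macrophages, was above 0 in 61.9% and 62.2% against 1.83% and 6.76%. Cd72, a lectin-like receptor best known from B cells, stood at 1274 and 1530 vpm against 86.3 and 158, and Fcrl5, an Fc receptor-like gene, at 718 and 589 against 65.8 and 39.4. Both were also higher in C1q-positive DC as a whole than in Mac. Fcgr4 stood at 2428 and 2390 vpm against 306 and 505, while Fcgr3 went the other way, at 33.2 and 68.7 against 263 and 338. Pltp, the phospholipid transfer protein, stood at 1477 and 889 vpm against 203 and 243, and Il1b at 1178 and 1052 against 467 and 328. Flt3 was at 0 in both classes of cells, and MHC class II genes were called in neither direction (0 of 8). The remaining named genes lower in the cells with Vcam1 were Rnf144a, Smpdl3b, Lipg, Stap1, Grap2 and Tmem176b.

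**Figure D4:**
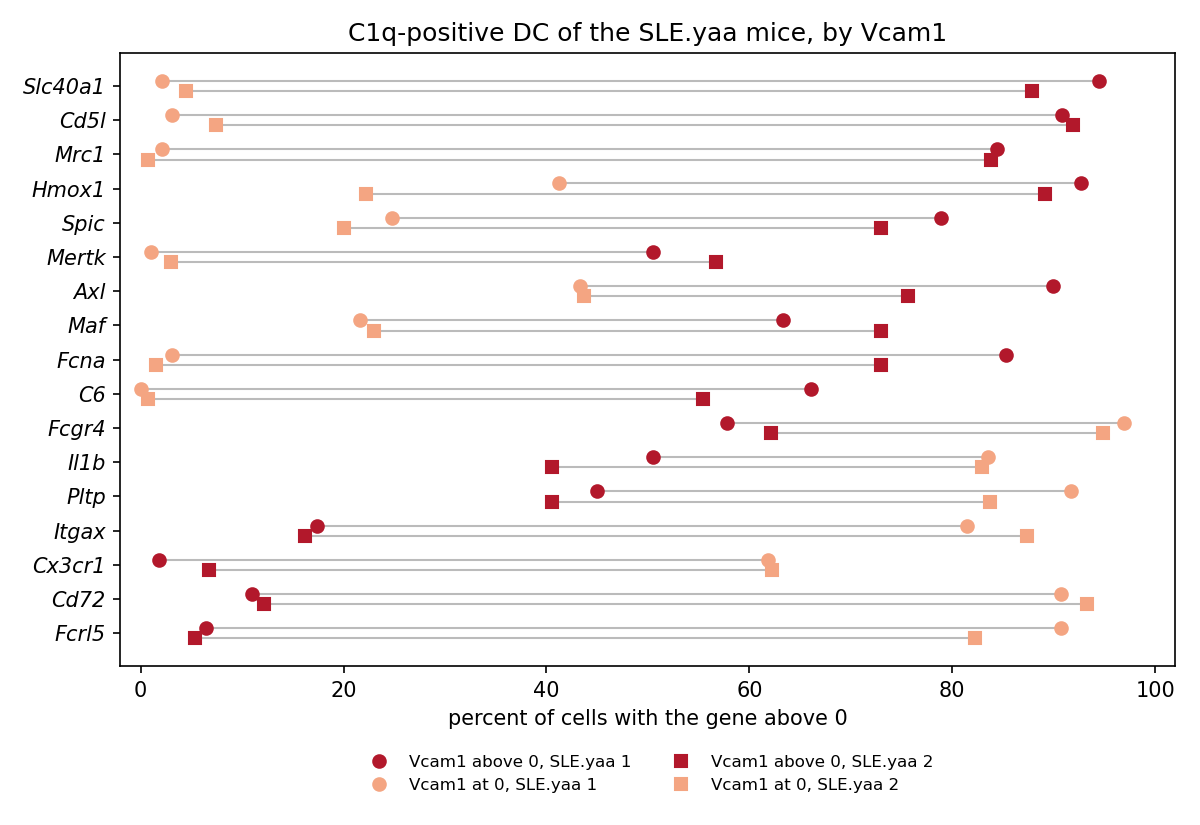
Percent of C1q-positive DC with each of 17 genes above 0, in cells with Vcam1 above 0 (dark) and at 0 (light), in SLE.yaa mouse 1 (circles) and 2 (squares). Slc40a1, Cd5l and Mrc1 lie at 83.8% or more in the first and at 7.41% or less in the second, and Itgax, Cx3cr1, Cd72 and Fcrl5 lie the other way.

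Depth and quality moved with the division. The median UMI count was 2884 and 1919 in cells with Vcam1 and 6020 and 4351 in those without, and the median mitochondrial percent was 2.62 and 2.45 against 1.69 and 1.84. At least 3 B cell markers were held by 19.3% and 25.7% of cells with Vcam1 and 11.3% and 8.89% of those without. Erythroid genes were higher in the cells with Vcam1 (6 of 7, 0 lower, median log2 difference 3.23), with a summed level of 2900 and 9677 vpm against 355 and 129. At least 3 erythroid markers were held by 3.67% and 8.11% of cells with Vcam1 and 3.09% and 2.22% of those without, and at least 3 platelet markers by 0% in both mice against 4.12% and 3.70%. The part of these values in the division was not tested. A division by Slc40a1 instead gave 490 higher and 384 lower genes and shared 91.4% of the higher genes called with Vcam1 (86.9% of its own) and 87.6% of the lower (75.5% of its own). A division by Itgax gave 298 and 220, with 58.4% (91.3% of its own) and 52.3% (78.6% of its own) shared.

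In WT mice the C1q-positive DC were too few for levels, and 1 of 4 and 6 of 9 held at least 3 B cell markers, whose part in the values below was not tested. Vcam1 was above 0 in 3 of 4 and 8 of 9 WT cells, Slc40a1 in 3 and 9, Hmox1 in 4 and 9, and Cd5l in 3 and 6. Flt3, Kit, Zbtb46 and Ccr7 were above 0 in none of the 13. Itgax was above 0 in 2 of 4 and 1 of 9, and Fcgr4 in 1 of 4 and 4 of 9. As shares of all cells, those with Vcam1 were 0.0546% and 0.140% of the WT mice's and 2.20% and 1.21% of the SLE.yaa mice's. Those without Vcam1 were 0.0182% and 0.0176% in WT against 1.96% and 2.20%. Only 1 cell without Vcam1 was found in each WT mouse. Pooled by genotype, Cd72 was above 0 in 0 of 13 WT and 235 of 415 SLE.yaa cells, and Pltp in 0 of 13 and 281 of 415. Both genes were mainly found in cells without Vcam1, while 11 of the 13 WT cells had Vcam1. Among cells with Vcam1 alone, Cd72 was above 0 in 0 of 11 WT and 21 of 183 SLE.yaa cells, and Pltp in 0 of 11 and 79 of 183. In the same cells C6 was above 0 in 0 of 11 WT and 113 of 183 SLE.yaa cells and Slpi in 11 of 11 and 92 of 183. Cells of 1 mouse are not replicates, so no test was made of these counts.

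Did genes of the C1q-positive DC also differ by genotype in cells that the rule left out? In Mac, limma called 454 of 7743 genes (5.86%) between SLE.yaa and WT, 310 higher and 144 lower. On sums scaled without TMM, which shifted the median of all genes from 0.030 to -0.12, the split was 167 higher and 258 lower. Of the 331 genes lower in cells with Vcam1, 247 were tested in Mac, where 49 (19.8%) rose and 14 (5.67%) fell, against 4.00% and 1.86% of all genes. Of the 466 genes higher in cells with Vcam1, 249 were tested, and 15 (6.02%) rose and 20 (8.03%) fell. Both readouts come from the same SLE.yaa mice. Of the genes named above for the cells without Vcam1, Itgax and Pltp rose, and Cx3cr1 did not pass (log2 difference 0.37, limma adjusted p = 0.135). Itgax stood at 54.4 and 54.6 vpm in WT Mac and at 146 and 174 in SLE.yaa Mac (log2 difference 1.39, SE 0.136, limma adjusted p = 0.00107). Cd72 stood at 9.07 and 5.08 against 29.2 and 50.1 (1.52, SE 0.222, limma adjusted p = 0.00470), and Fcrl5 at 0.605 and 0 against 11.1 and 19.96 (1.29, SE 0.208, limma adjusted p = 0.00792). Pltp rose by 1.36 on the log2 scale (SE 0.292, limma adjusted p = 0.0272), and limma gave an adjusted p of 0.0507 for it without TMM. Pltp also did not pass without SLE.yaa 2, a fit with 1 SLE.yaa mouse. The SLE.yaa levels of these genes lay above both WT levels. Hp, which was near 0 in C1q-positive DC, rose as well, from 286 and 268 vpm to 752 and 901 (1.54, SE 0.127, limma adjusted p = 0.000464). Fcgr4 did not pass, at 318 and 126 vpm in WT and 273 and 365 in SLE.yaa (limma adjusted p = 0.310). Without WT 1, which leaves 1 WT mouse, its log2 difference was 1.26. With no minimum level, Cd72, Fcrl5 and Pltp did not pass (limma adjusted p of 0.0758, 0.0574 and 0.154).

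Other Fc receptor and class II genes fell in Mac of SLE.yaa mice. Fcgr3 fell by 1.77 (SE 0.135, limma adjusted p = 0.000311) and Fcgr2b by 2.07 (SE 0.217, limma adjusted p = 0.00141), both on the log2 scale. Of 10 MHC class II genes 7 fell and 0 rose, among them H2-Ab1, from 1081 and 609 vpm to 203 and 252 (log2 difference -1.80, SE 0.228, limma adjusted p = 0.00284, and 0.0540 with no minimum level). Of 10 classical monocyte genes 5 fell and 0 rose, and of 11 patrolling monocyte genes 6 rose and 0 fell, so the mix of cells annotated Mac moved with genotype too, and its part was not tested. Tlr7 rose by 0.70 on the log2 scale (SE 0.128, limma adjusted p = 0.0148), from 95.6 and 110 vpm to 170 and 177. Tlr7 did not pass with SLE.yaa 1 or SLE.yaa 2 left out, which leaves 1 SLE.yaa mouse. With no minimum level its limma adjusted p was 0.0609. Hmox1, Apoe and Spic did not pass in Mac (limma adjusted p of 0.268, 0.951 and 0.966). Without WT 2, which leaves 1 WT mouse, Hmox1 and Apoe had log2 differences of 0.58 and 0.63. Without WT 1 that of Apoe went in the other direction (-0.53). The count of calls leaned on single mice: leaving out WT 1 gave 1616, WT 2 gave 1020, SLE.yaa 1 gave 142 and SLE.yaa 2 gave 50.

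In other DC, limma called 49 of 8086 genes (0.606%), 33 higher and 16 lower in SLE.yaa. Fcgr4 stood at 8.01 and 6.47 vpm in WT and at 143 and 182 in SLE.yaa (log2 difference 3.32, SE 0.308, limma adjusted p = 3.17e-06). It was above 0 in 2 of 73 and 2 of 65 WT cells and in 5 of 54 and 13 of 81 SLE.yaa cells. A single cell held 28 of the summed depth-adjusted value of 43 in SLE.yaa 1, and 29 of 83 in SLE.yaa 2. Pltp, above 0 in 13 of 54 and 26 of 81 SLE.yaa cells, rose by 2.54 (SE 0.328, limma adjusted p = 0.000334) and Cd72 by 1.75 (SE 0.338, limma adjusted p = 0.0146) on the log2 scale. The other DC of the SLE.yaa mice included the 13 cells with 1 C1q chain. Without them the log2 difference of Fcgr4 was 2.58. Pltp rose by 2.28 (limma adjusted p = 0.00149), while Cd72 no longer passed (1.42, limma adjusted p = 0.0859). Hmox1, Vcam1 and Spic did not pass in other DC (limma adjusted p of 0.0610, 0.305 and 0.127). Leaving out single mice changed whether Hmox1 and Vcam1 passed, but such fits have 1 mouse in a group and their p-values are not given. Cd72 did not pass without WT 2, a fit with 1 WT mouse. With no minimum level Hmox1, Vcam1 and Spic passed (limma adjusted p of 2.89e-08, 0.0365 and 0.0409). Without SLE.yaa 2 the count of calls was 175. The fits for Mac and for other DC use the same 4 mice.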

How the data were processed

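Groups came from the labels. Replicate numbers only name the mice and pair none. Per the submitters' processing notes, Cell Ranger 5.0.0, Seurat 4.0.0 and the build GRCm38 (mm10) were used. In the expression table that the authors deposited, values are on the natural log scale. Undoing the log and taking off 1 left whole values (within 1.64e-11) whose sum per cell spanned 2.40-fold, against 26.8-fold for UMI counts. Depth had thus been adjusted, in a way the sources here do not state. No count model was therefore applied to expression, although raw counts would have had one. UMI counts, gene counts, the percent of mitochondrial UMIs and cell cycle scores per cell are in a second table that the authors deposited, and the scores entered no result. No deposited cell had more than 2999 genes or 5.00% mitochondrial UMIs. The sources do not say how doublets were treated, and no caller was run. The 15 rows without a gene name, 0.0440% of the values, were left out, and 16094 genes remained.

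Values were averaged per class and mouse, scaled to 1000000 and divided by TMM factors (edgeR 4.0.16, R 4.3.3). Differences are of log2(level + 10), for genes with at least 10 vpm in both SLE.yaa mice of either class. Genotype was tested in Mac and other DC with limma 3.58.1 (trend, after leaving out genes that reached 10 vpm in fewer than 2 mice), and cell numbers with edgeR on counts per type, both two-sided and Benjamini-Hochberg adjusted at a threshold of 0.05. With 2 mice a group, p-values do not measure the spread of a single gene or cell type between mice alone. They rest on a variance moderated over all genes tested (limma) or over the cell types (edgeR). Each fit was also run on simulated data, and no outcome of those runs is used here. Receptor barcodes came from the heavy-chain UMI counts and T cell receptor tables that the authors deposited.

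Named genes were the 15 highest and 10 lowest called per comparison by the smaller of the differences in both SLE.yaa mice, without receptor segments, the 6 marker genes, Tlr7 and members of the lists with the largest differences. Other genes named, such as list members without a call, were chosen after their values were seen. A gene that met this rule is not reported here. The members and the 38 gene lists (384 genes, 370 in the table) were chosen with earlier results of these data known, and some lists share genes. Promoters were read from RefSeq (GRCm38.p6), and motifs were counted on both strands. Alternatives were other pseudocounts, minimums, scalings, C1q rules and DESeq2 1.42.0 for cell numbers, and leaving out each mouse.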

Additional observations from a re-analysis of the deposited data

How the results depend on the processing

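Only 2 mice a group and 13 C1q-positive DC in WT limit what can be read. The larger share of C1q-positive DC in SLE.yaa mice kept its direction under all 9 alternatives (log2 3.16 to 5.66). It passed in those that kept 2 mice a group. The cells were chosen with that distribution known, so these settings are no independent check of it. No paired analysis was possible because the replicate numbers are not in the labels. Against other DC the 929 called genes became 1351 to 1559 when 1 SLE.yaa mouse was left out and the call rested on the other, and 640 to 1128 under the other settings. Against Mac the 999 became 1250 to 1258, and 694 to 1190. The division by Vcam1 called 797 genes, 518 when made by Itgax, 523 with a pseudocount of 20 and 1352 to 1488 with 1 mouse left out. In Mac the 454 genes called by limma became 79 with no minimum level and 50 to 1616 with 1 mouse left out. In other DC the 49 became 139 with no minimum level, 38 without cells holding 1 C1q chain and 56 to 175 with 1 mouse left out, where the lone mouse is assumed to vary like the other group. T cell receptors alone were found for 0.485% of C1q-positive DC of SLE.yaa 1, against 2.43% with either receptor. Leaving out the cells that hold an erythroid transcript removes haemoglobin by construction: the log2 differences of Hbb-bs, Hba-a1 and Hba-a2 became 0, 0 and 0 against other DC and -0.068, -0.057 and -0.086 against Mac. The settings without erythroid cells, without 1-chain cells, without cells holding 3 neutrophil or red pulp markers, and the division by Vcam1 were chosen after seeing the data.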

Other observations

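Of the lists outside the comparisons above, those of dendritic cell function had members that were lower than in other DC, beside 4.95% of all genes compared. Of 9 costimulation genes 4 were lower and 0 higher, and of 10 dendritic cell transcription factor genes 3 were lower and 0 higher. Of 6 chemokine receptor genes 3 were lower and 1 was higher. These counts share lower genes with those given before. Ccr7 and Fscn1 are in the costimulation list, Ccr7 also in that of chemokine receptors, and Zbtb46 in that of transcription factors. Cd40, which receives the T cell signal CD40L, stood at 8.42 and 16.2 vpm against 66.5 and 81.3, and the cDC2 factor gene Irf4 at 3.74 and 0 against 33.3 and 28.6. Ccr2, the receptor for monocyte egress from bone marrow, stood at 1.87 and 1.01 against 26.6 and 41.7 vpm in other DC and 148 and 122 in Mac. Of 3 marginal zone macrophage genes 2 were higher and 1 was lower than in other DC.

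Lists of cell state had few calls. Of 5 proliferation genes 0 were called against other DC and 1 was lower than in Mac. None of 8 ribosomal protein genes and none of 5 heat shock genes was called in either comparison. Of 8 immediate early genes 1 was higher than in other DC, and 2 were higher and 2 lower than in Mac. Of 13 interferon gamma target genes 1 was higher and 1 lower than in other DC. Iigp1, an interferon-inducible GTPase, stood at 81.4 and 81.1 vpm against 6.65 and 24.2 in other DC. The gene that was lower, Ciita, is the master regulator of MHC class II. Marco, a scavenger receptor of marginal zone macrophages, stood at 29.0 and 8.11 vpm, under the minimum in SLE.yaa 2. Nr1h3, a lipid-sensing nuclear receptor, stood at 325 and 264 vpm, against 73.2 and 17.6 in other DC and 36.6 and 37.4 in Mac.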
